A study of Homo sapiens with 6 samples.

Results

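The 38 genes described here, called redox genes below, encode antioxidant enzymes, the glutathione and thioredoxin systems, their regulators, and enzymes of the pentose phosphate pathway and malic enzyme. They were taken by name from a list written with earlier results of these data known, and all 38 were found among the 58051 genes of the table of normalized counts. Their RNA was compared between 3 samples of A2780-ADR, a cell line made resistant to adriamycin (doxorubicin), and 3 samples of A2780, the doxorubicin-sensitive human ovarian cancer line it derives from. All 6 samples were untreated, and both lines were grown in the same serum-supplemented medium. Each group is a single cell line, so a difference between the groups is a difference between this pair of lines. The series record calls the samples independent without saying whether they came from separate cultures, so a p-value speaks only of the spread among the samples at hand, some or all of which may be technical.

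Cells remove hydrogen peroxide mainly through catalase, the glutathione peroxidases and the peroxiredoxins. The peroxidases are recharged by glutathione or thioredoxin, and both of these are kept reduced by reductases that draw on NADPH, which comes largely from the pentose phosphate pathway and malic enzyme. The transcription factor NFE2L2 (NRF2) switches on many of these genes by binding antioxidant response elements in their promoters, and KEAP1 holds it down by passing it to a ubiquitin ligase. Doxorubicin is a quinone that can cycle between oxidized and reduced forms and so yield superoxide, which is one reason these genes are followed in cells that resist it.

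The 6 libraries held between 27775745 and 30513366 reads in genes, and mitochondrially encoded genes took 5.95% to 6.26% of the reads in A2780-ADR and 5.54% to 6.36% in A2780. ABCB1, the gene of the drug efflux pump P-glycoprotein and the known mark of this resistant line, had 26769, 27779.6 and 29512 normalized counts in the A2780-ADR samples, against 0, 2.04 and 1.06 in the A2780 samples, as the labels have it. Of 9 markers of ovarian carcinoma and epithelium, 5 were tested and 3 (KRT8, KRT18 and FOLR1) were called higher. EPCAM and KRT19 did not pass (adjusted p = 0.0577 and 0.567 from limma), and CDH1 had at most 8.14 in any sample. The summed level of the 9 ran from 12819 to 14214 normalized counts in A2780-ADR, against 295 to 334 in A2780. Most of it was KRT8 and KRT18. The defining ovarian markers PAX8, WT1 and MUC16 were at or near 0 in A2780 (at most 4.22) and at most 22.1 in A2780-ADR. The 5 immune markers summed to 88.9 to 121 in A2780-ADR and 18.3 to 31.7 in A2780, with CD3E at 0 in all samples, and the 4 endothelial markers to 27.4 to 37.6 in A2780-ADR and 0 to 1.06 in A2780. The 5 fibroblast genes summed to 35773 to 36799.6 in A2780-ADR and 25010.3 to 28335 in A2780, most of it COL3A1 (log2 fold change 0.29). They did not move together, since COL1A1 (3.11) and COL1A2 (3.26) were called higher, DCN (-2.41) was called lower and LUM stood at -0.91. The part of these marker differences in the results below was not tested. In such bulk RNA, fewer cells of a type and less RNA per cell cannot be told apart.

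Most redox genes were more abundant in A2780-ADR, but by small amounts. Of the 38, 35 reached the low-count filter (mean over the 6 samples of 10 or more normalized counts) and were tested with limma on log2(normalized count + 1), and GPX2, GPX7 and SRXN1 did not reach it. With both an adjusted p below 0.05 and more than a 2-fold change required, 4 were called higher (SOD3, ME1, TXNIP and CAT) and 2 lower (GPX3 and GCLC). These 6 make 17.1% of the 35, against 27.6% of all 17005 genes tested. By direction the shares were 11.4% against 13.2% for higher and 5.71% against 14.4% for lower. Below, "rose" and "fell" are used of genes with an adjusted p under 0.05 from limma at any fold, and by that measure 24 rose, 8 fell and 3 did not pass (GPX4, TXNRD3 and PGD). Together that is 91.4% of the 35, against 71.8% of all genes, with 68.6% against 35.4% for higher and 22.9% against 36.4% for lower. The samples of the lines did not overlap in 32 of the 35, or 91.4%, against 74.6% of all genes. The median log2 fold change was 0.29 (quartiles 0.0064 and 0.51), against -0.0074 for all genes (quartiles -0.49 and 0.50). Expression level moved with these shares: among the 30 redox genes with a mean of at least 1000, 93.3% passed at any fold and 10% were called, against 78.6% and 12.8% of the 6137 genes at that level, and its part in them was not tested further. SOD3 passed the filter only through its A2780-ADR samples and GPX3 only through its A2780 samples, so these genes had to differ once they were tested, and their calls and p-values are given as a description only.

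**Figure D1:**
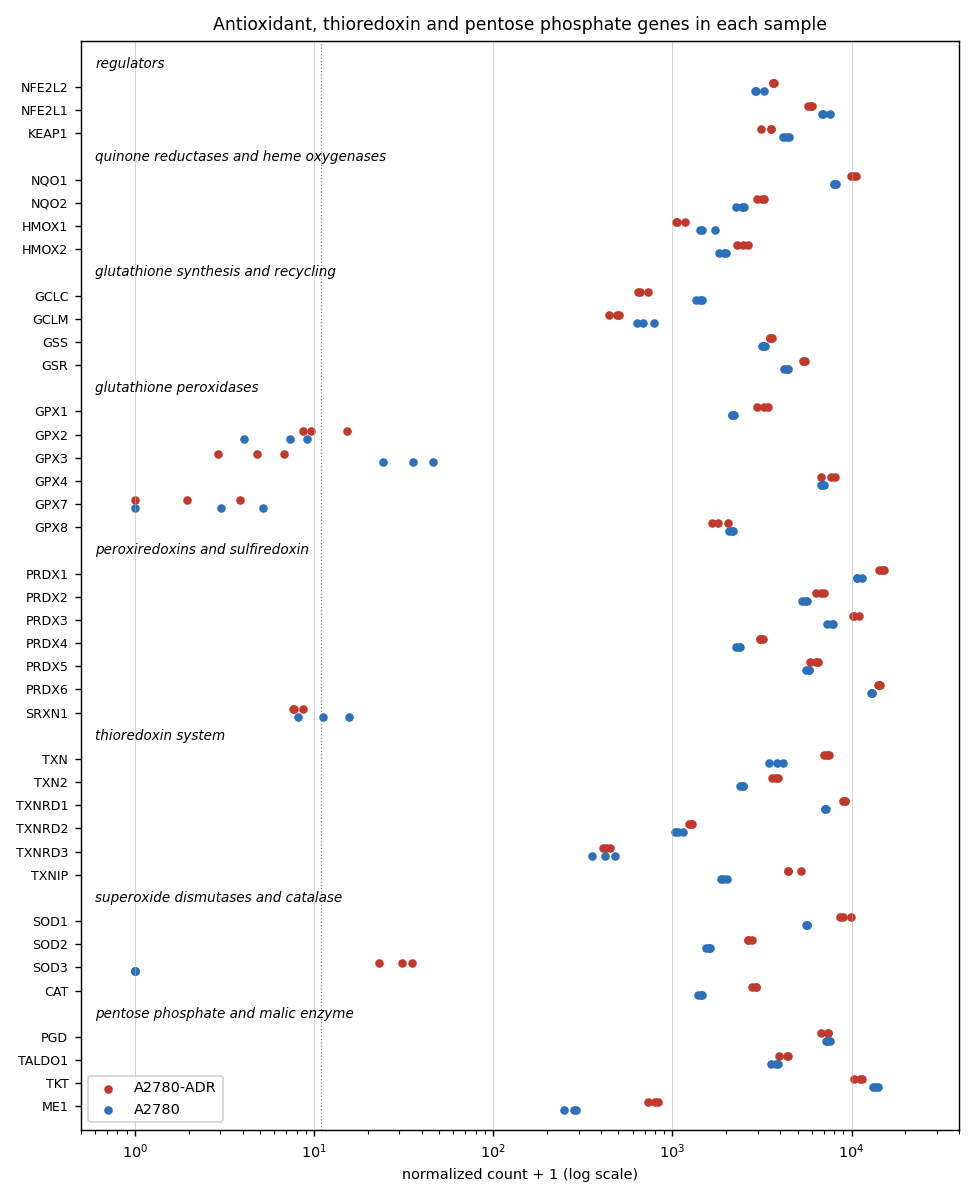
Normalized count plus 1 of the 38 redox genes in each sample, on a log scale, grouped by role, with A2780-ADR samples in red above A2780 samples in blue and a dotted line at the filter's mean of 10. SOD3 lies at 0 counts in all 3 A2780 samples, and the 6 tested peroxiredoxins each have their A2780-ADR points to the right of their A2780 points.

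**Figure D2:**
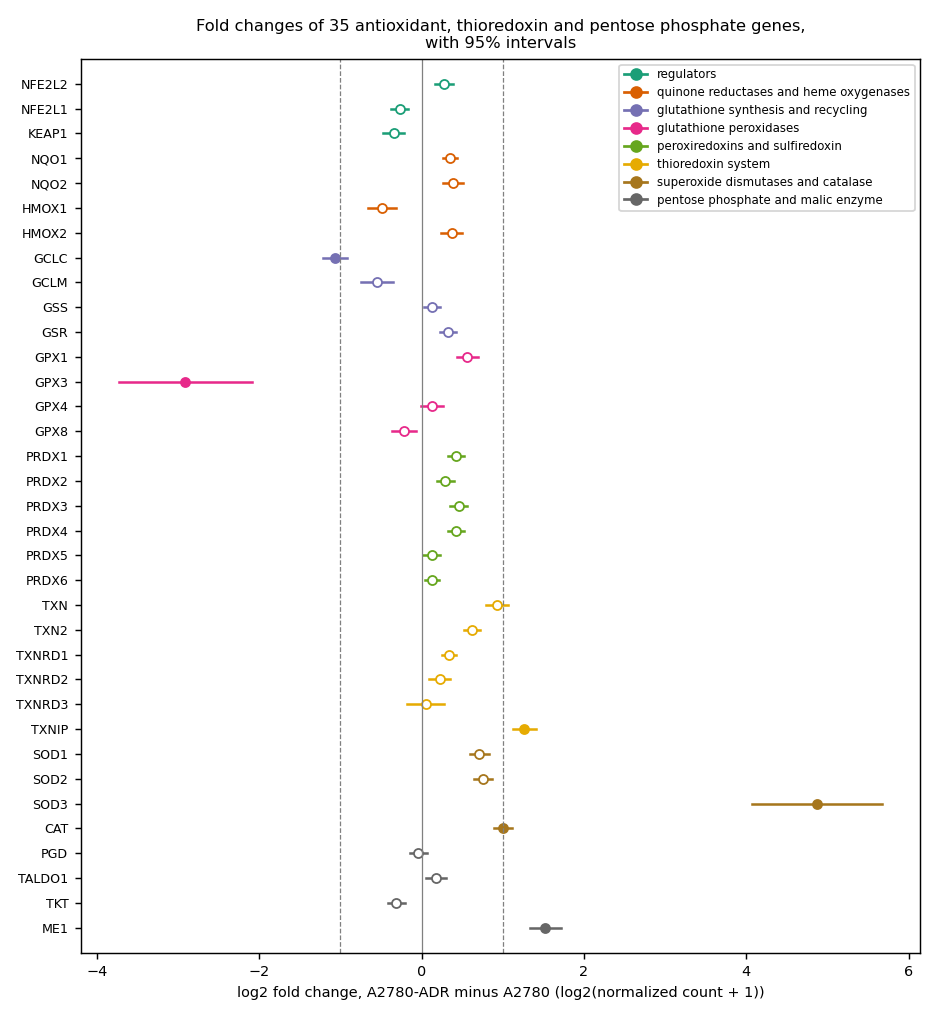
Log2 fold change, A2780-ADR minus A2780, of the 35 tested genes with 95% intervals from limma, coloured by role. Filled circles mark the 6 genes called at more than a 2-fold change (dashed lines), and the values of SOD3 and GPX3 rest on few reads.

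The regulators differed in direction. NFE2L2, the main activator of antioxidant genes, had 3642, 3674 and 3637 normalized counts in the A2780-ADR samples, against 2875, 2928 and 3231 in the A2780 samples. It rose by a log2 fold change of 0.28 (adjusted p = 3.98e-04 by limma, with a standard error of 0.0515), and its lines did not overlap. KEAP1, the adaptor that hands NFE2L2 to degradation, had 3537, 3568 and 3124 in A2780-ADR, against 4502, 4329.9 and 4154 in A2780. It fell by 0.35 on the log2 scale (adjusted p = 1.92e-04, standard error 0.0580), again with no overlap. NFE2L1, a relative of NFE2L2 best known for control of proteasome genes, had 5913, 6055 and 5709 in A2780-ADR, against 7586, 6961 and 6819 in A2780. Its log2 fold change was -0.27 (adjusted p = 3.65e-04, standard error 0.0496), so none of the 3 regulators differed 2-fold.

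Antioxidant response elements were looked for in the promoters of these genes, because they are the sites at which NFE2L2 acts. The core TGACNNNGC was searched on both strands of windows from 250 bases before to 50 bases after each start in RefSeq (GRCh38.p14), and 31 of the 38 genes had a window, 45 windows in all. It was present in 7 of the 45 windows (15.6%), against 13.3% of 35116 windows of all genes, so these letters are nearly as common elsewhere. The 6 genes with a match were GCLM, GPX2, KEAP1, ME1, PGD and TXNRD1, of which 1 was called (ME1), 3 more passed at any fold (GCLM fell, KEAP1 fell and TXNRD1 rose), 1 did not pass (PGD) and 1 was not tested (GPX2). A match is a description of letters and not a bound site. Sequence outside these windows was not searched, so a gene without a match, or without a window, may still hold such an element. Stretches around 1 match each are shown for the regulator KEAP1 and for 3 genes of differing direction, on the strand of the gene and with the core, or its reverse complement, in capitals. GCLM is read from chr1:93909441-93909479 on the minus strand with the core 34 bases before the start, KEAP1 from chr19:10502779-10502817 on the minus strand (31 bases before), TXNRD1 from chr12:104215665-104215703 on the plus strand (99 bases before) and PGD from chr1:10398848-10398886 on the plus strand (201 bases before).
GCLM: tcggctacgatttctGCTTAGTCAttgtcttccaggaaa
KEAP1: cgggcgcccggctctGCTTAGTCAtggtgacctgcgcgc
TXNRD1: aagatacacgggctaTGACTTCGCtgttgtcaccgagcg
PGD: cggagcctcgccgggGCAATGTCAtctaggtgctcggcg

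ME1 was the called gene among those with a match, so its whole window is shown, chr6:83431002-83431301 on the minus strand, with both matches in capitals. The match 137 bases before the start, TGACTCAGC, also contains the letters TGANTCA, the form shared with AP-1 sites, and the other lies 11 bases after the start on the opposite strand.
ME1: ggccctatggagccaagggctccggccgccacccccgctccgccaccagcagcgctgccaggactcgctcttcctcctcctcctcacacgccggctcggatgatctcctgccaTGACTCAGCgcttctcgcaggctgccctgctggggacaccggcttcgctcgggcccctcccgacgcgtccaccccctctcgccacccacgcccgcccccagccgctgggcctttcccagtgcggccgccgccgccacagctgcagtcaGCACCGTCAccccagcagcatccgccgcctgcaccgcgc

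Of the 4 quinone reductases and heme oxygenases, 3 rose and 1 fell, and none differed 2-fold. HMOX1, the inducible heme oxygenase and a classic NFE2L2 target, had 1171, 1047 and 1063 normalized counts in A2780-ADR, against 1730.5, 1469.8 and 1421 in A2780. All 3 resistant samples were below all 3 sensitive samples, and HMOX1 fell by 0.49 on the log2 scale (adjusted p = 1.21e-04 from limma, standard error 0.0776). HMOX2, the constitutive heme oxygenase, averaged 2483 ± 171 in A2780-ADR and 1919 ± 81.7 in A2780 (SD, n = 3 each; log2 fold change 0.37). NQO1, which reduces quinones by a pair of electrons at once and is among the best known NFE2L2 targets, averaged 10252 ± 311 in A2780-ADR and 8045 ± 83.9 in A2780 (log2 fold change 0.35, adjusted p = 8.78e-06). Its paralog NQO2 averaged 3141 ± 140.1 in A2780-ADR and 2403 ± 133 in A2780 (log2 fold change 0.39). The inducible and the constitutive heme oxygenase genes thus moved in opposite directions, each beyond the spread of its samples.

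Both subunits of glutamate-cysteine ligase, the rate-limiting enzyme of glutathione synthesis, fell in A2780-ADR, while the genes of the later synthesis step and of glutathione recycling rose slightly. GCLC (ENSG00000001084, minus strand of chromosome 6, 53497341 to 53616970), the catalytic subunit, had 642, 655 and 733 normalized counts in A2780-ADR, against 1355, 1434 and 1467 in A2780. The level in A2780-ADR was 0.477 times that in A2780 (log2 fold change -1.07, 95% interval -1.21 to -0.92, adjusted p = 3.07e-08 from limma). GCLM, the modifier subunit that makes the enzyme more efficient, had 445, 487 and 504 in A2780-ADR, against 632, 685 and 787 in A2780. It fell by 0.55 on the log2 scale (95% interval -0.74 to -0.35, adjusted p = 1.57e-04), with no overlap for either subunit. GSS, which joins glycine in the following step, averaged 3522 ± 46.6 in A2780-ADR and 3222 ± 64.5 in A2780 (SD, n = 3 each; log2 fold change 0.13, adjusted p = 0.0173). Without A2780-ADR replicate 2, GSS no longer passed (adjusted p = 0.0612 from limma). GSR, the reductase that regenerates glutathione with NADPH, averaged 5432 ± 68.3 in A2780-ADR and 4335 ± 132 in A2780 (log2 fold change 0.33, adjusted p = 2.38e-05).

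The glutathione peroxidases showed no common direction. GPX3 (ENSG00000211445, plus strand of chromosome 5, 151020438 to 151028993), the form secreted into plasma, had 3.78, 1.93 and 5.77 normalized counts in A2780-ADR, against 34.6, 23.4 and 45.4 in A2780. That is 12 reads in the 3 A2780-ADR libraries and 100 in the 3 A2780 libraries, and the log2 fold change was -2.91 (adjusted p = 2.01e-05 from limma, standard error 0.373), which the added count of 1 makes smaller. GPX1, the widely expressed form of cytosol and mitochondria, averaged 3214 ± 238 in A2780-ADR and 2170.2 ± 38.2 in A2780 (SD, n = 3 each; log2 fold change 0.56, adjusted p = 2.46e-06). GPX4, which reduces lipid hydroperoxides in membranes and so guards against ferroptosis, had 8079, 7681 and 6756 in A2780-ADR, against 6823, 6976 and 6756 in A2780. The samples overlapped and GPX4 did not pass (log2 fold change 0.13, adjusted p = 0.075), but it passed without A2780-ADR replicate 3, the lowest of that line (log2 fold change 0.20, adjusted p = 0.00111 from limma). GPX8, a peroxidase of the endoplasmic reticulum, averaged 1836 ± 189 in A2780-ADR and 2127 ± 61.5 in A2780 (log2 fold change -0.22, adjusted p = 0.0139). Its call at any fold was lost without A2780-ADR replicate 1 (adjusted p = 0.0505), without A2780-ADR replicate 2 (0.0699) and without A2780 replicate 2 (0.0587). GPX2, the intestinal form, had 14.2, 7.71 and 8.66 in A2780-ADR and 3.05, 8.15 and 6.33 in A2780, and GPX7 had at most 4.22 in any sample.

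All 6 peroxiredoxin genes rose in A2780-ADR, each by less than 2-fold. PRDX3, the peroxiredoxin of mitochondria, rose most, with 10224, 10289.7 and 10949 normalized counts in A2780-ADR, against 7251, 7895 and 7790.0 in A2780 (log2 fold change 0.46, 95% interval 0.35 to 0.56, limma's adjusted p = 3.30e-06). PRDX1, an abundant cytosolic form, averaged 14743 ± 494 in A2780-ADR and 10963 ± 412 in A2780 (SD, n = 3 each; log2 fold change 0.43). PRDX4, the form of the endoplasmic reticulum, averaged 3123 ± 54.4 in A2780-ADR and 2333 ± 52.3 in A2780 (log2 fold change 0.42). For cytosolic PRDX2 the log2 fold change was 0.29. The smallest were those of PRDX5, found in mitochondria and peroxisomes (0.12, adjusted p = 0.0352), and PRDX6, which uses glutathione in place of thioredoxin (0.13, adjusted p = 0.00866). The samples of the lines did not overlap in any of the 6, but PRDX5 lost its call when any library other than A2780-ADR replicate 3 was left out (adjusted p 0.0538 to 0.16 from limma). Of all genes tested, 35.4% rose and 74.6% did not overlap, so neither trait is rare between these lines. SRXN1, the sulfiredoxin that repairs over-oxidized peroxiredoxins, had 6.62, 6.74 and 7.70 in A2780-ADR and 7.12, 10.2 and 14.8 in A2780 and was not tested. A gene annotated on its strand, AL121758.1, shares 2292 bases with it, so strand cannot tell reads of the shared part apart.

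In the thioredoxin system both thioredoxins rose, and so did TXNIP, the protein that binds and inhibits thioredoxin and also lowers glucose uptake. TXNIP (ENSG00000265972, minus strand of chromosome 1, 145992435 to 145996600) had 4399, 4423 and 5195 normalized counts in A2780-ADR, against 1914, 1874 and 2028 in A2780. It was more than 2-fold higher in A2780-ADR (log2 fold change 1.27, 95% interval 1.12 to 1.41, adjusted p = 5.54e-09 from limma). TXN, the cytosolic thioredoxin, had 7033, 7485 and 7271 in A2780-ADR, against 3462, 3845 and 4167 in A2780. Its fold change of 1.90 stayed just under the threshold (log2 fold change 0.93, 95% interval 0.79 to 1.06, adjusted p = 5.61e-08). TXN2, the mitochondrial thioredoxin, averaged 3773 ± 146 in A2780-ADR and 2452 ± 52.6 in A2780 (SD, n = 3 each; log2 fold change 0.62, adjusted p = 1.75e-07). The reductases that recharge them rose less. TXNRD1, of the cytosol, averaged 9073 ± 142 in A2780-ADR and 7156 ± 59.0 in A2780 (log2 fold change 0.34), and TXNRD2, of mitochondria, 1267 ± 26.2 in A2780-ADR and 1086 ± 59.4 in A2780 (log2 fold change 0.22). TXNRD3, best known from testis, averaged 428 ± 20.6 in A2780-ADR and 416 ± 60.7 in A2780 and did not pass (log2 fold change 0.051, 95% interval -0.18 to 0.28, adjusted p = 0.67).

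TXNIP is known to be switched on by glucose through MLXIP and MLXIPL, which pair with MLX and bind a carbohydrate response element made of a pair of E-box-like sequences. Its promoter window, chr1:145996530-145996829 on the minus strand, is shown with the letters of such a pair in capitals, 88 bases before the start. The pattern searched, 2 copies of CACGNG with 5 bases between them, was written after this promoter and the value of TXNIP had been seen. On both strands it was present in 20 of the 35116 windows (0.057%), and TXNIP was the only redox gene among them.
TXNIP: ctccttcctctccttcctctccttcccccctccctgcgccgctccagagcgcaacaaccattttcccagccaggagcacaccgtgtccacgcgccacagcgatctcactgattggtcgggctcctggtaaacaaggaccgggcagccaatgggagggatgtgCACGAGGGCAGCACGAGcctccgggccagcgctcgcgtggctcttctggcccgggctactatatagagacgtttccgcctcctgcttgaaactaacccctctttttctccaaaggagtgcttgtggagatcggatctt

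The superoxide dismutases and catalase, the enzymes that turn superoxide into hydrogen peroxide and hydrogen peroxide into water, all rose. CAT (ENSG00000121691, plus strand of chromosome 11, 34438925 to 34472062) had 2777, 2917 and 2927 normalized counts in A2780-ADR, against 1453, 1390.3 and 1459 in A2780. Its log2 fold change of 1.002 (95% interval 0.90 to 1.11, adjusted p = 2.95e-09 from limma) lay at the threshold. CAT fell under 2-fold without A2780-ADR replicate 2 (0.99), without A2780-ADR replicate 3 (0.99), without A2780 replicate 2 (0.98) and after TMM rescaling (0.99). SOD1, the copper and zinc enzyme of the cytosol, had 8951, 9974 and 8641 in A2780-ADR, against 5627, 5552 and 5631 in A2780 (log2 fold change 0.71, adjusted p = 1.56e-07). SOD2, the manganese enzyme of mitochondria, had 2771, 2627 and 2632 in A2780-ADR, against 1532, 1592 and 1621 in A2780 (log2 fold change 0.76, adjusted p = 4.08e-08). No sample of one line reached the range of the other for any of these 3 genes, as was so for 74.6% of all genes tested. SOD3 (ENSG00000109610, plus strand of chromosome 4, 24789912 to 24800842), the extracellular form, had 34.05, 22.2 and 29.8 in A2780-ADR and 0 in all 3 A2780 samples. With 90 reads against 0, its level in A2780-ADR was 27.8-fold higher when the 3 A2780 libraries together are given a floor of 3 reads. That floor allows for the counting error of the 0 reads only, and the 90 reads are taken as counted.

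Of the 4 redox genes of the pentose phosphate pathway and malic enzyme, ME1 differed most. ME1 (ENSG00000065833, minus strand of chromosome 6, 83210389 to 83431071), the cytosolic malic enzyme, had 730.2, 798 and 829.6 normalized counts in A2780-ADR, against 279.8, 249 and 289 in A2780. It was 2.88 times as abundant in A2780-ADR (log2 fold change 1.53, 95% interval 1.34 to 1.71, adjusted p = 1.04e-08 from limma). PGD, the phosphogluconate dehydrogenase of the oxidative branch, averaged 7148 ± 364 in A2780-ADR and 7337 ± 197 in A2780 (SD, n = 3 each). The samples overlapped, and the interval of the log2 fold change ran from -0.14 to 0.066 (adjusted p = 0.484). TKT and TALDO1, the transketolase and transaldolase of the nonoxidative branch, moved in opposite directions. TKT averaged 10923 ± 575 in A2780-ADR and 13569 ± 412 in A2780 (log2 fold change -0.31, adjusted p = 9.08e-05), and TALDO1 4236 ± 256 in A2780-ADR and 3747 ± 183 in A2780 (log2 fold change 0.18, adjusted p = 0.0137). TALDO1 no longer passed without A2780-ADR replicate 1 (adjusted p = 0.0625), without A2780-ADR replicate 2 (0.0622) and without A2780 replicate 3 (0.0605).

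**Figure D3:**
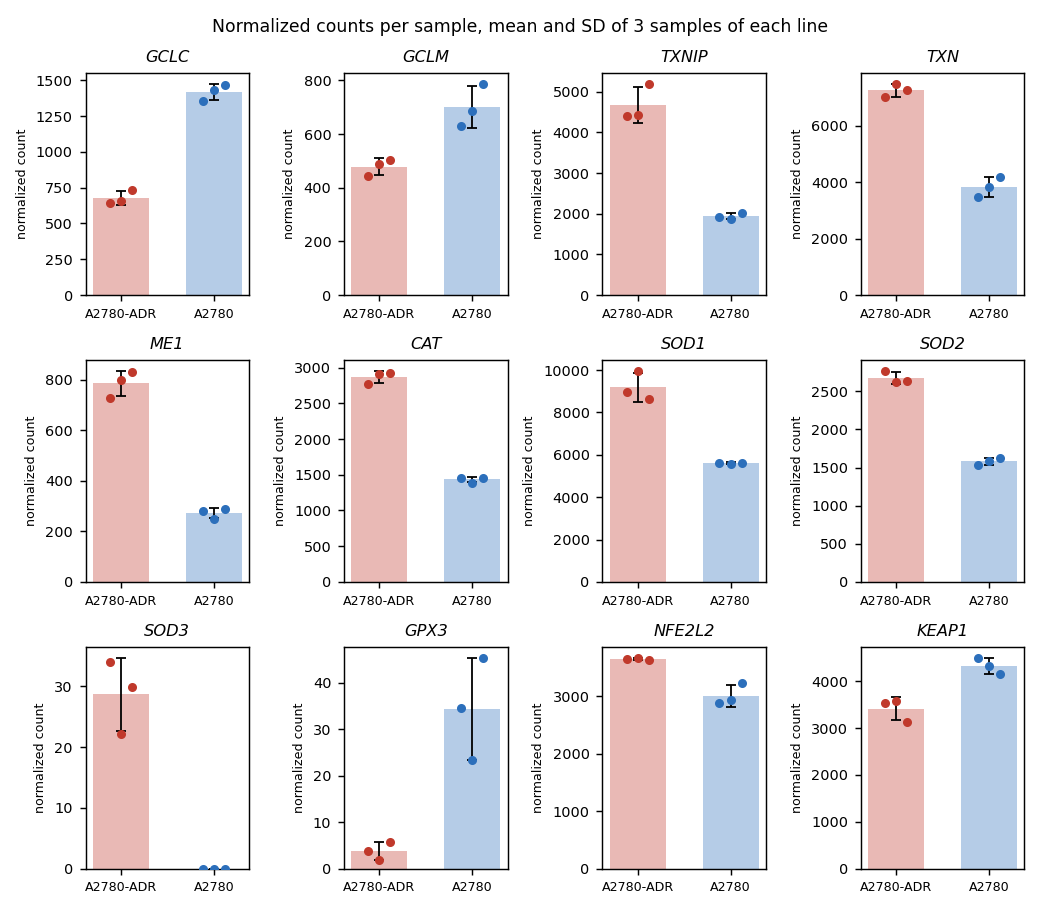
Normalized counts of 12 redox genes, with points for the 3 samples of each line, bars for the mean and error bars for the SD, on axes that start at 0. GCLC, GCLM, GPX3 and KEAP1 are lower in every A2780-ADR sample than in every A2780 sample, and the other 8 genes are higher.

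Ratios of paired genes within each sample were compared between the lines, since they do not depend on how the libraries were scaled. The pairs were chosen after the values had been seen, and no p is given because 3 samples against 3 cannot give an exact two-sided permutation p under 0.1. The ratio of GCLC to GCLM was 1.44, 1.34 and 1.45 in the A2780-ADR samples, against 2.14, 2.09 and 1.86 in the A2780 samples, so the catalytic subunit was lower by more than its partner. KEAP1 to NFE2L2 stood at 0.971, 0.971 and 0.859 in A2780-ADR, against 1.57, 1.48 and 1.29 in A2780. For TXNIP to TXN the values were 0.625, 0.591 and 0.714 in A2780-ADR, against 0.553, 0.487 and 0.487 in A2780. CAT to SOD1 was 0.310, 0.292 and 0.339 in A2780-ADR, against 0.258, 0.250 and 0.259 in A2780. In these 4 ratios the lines did not overlap. SOD2 to SOD1 overlapped, at 0.310, 0.263 and 0.305 in A2780-ADR and 0.272, 0.287 and 0.288 in A2780. Since the genes differ in length, only the difference between the lines can be read from such a ratio.

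Some redox genes share sequence with a neighbour. On the opposite strand SOD2 overlaps WTAP, HMOX2 overlaps NMRAL1, PRDX1 overlaps MMACHC and NFE2L2 overlaps AGPS. On the same strand NFE2L2 overlaps AC019080.1 and NQO2 overlaps LINC01011, with means of 106 and 220.1 normalized counts over the 6 samples, and GCLC overlaps AL033397.1 with a mean of 2.22. The strand setting of the counting is not given in the sources used here, so reads of such pairs cannot be fully told apart. Genes with named processed copies, such as TXN and the peroxiredoxins, share reads with them uncertainly, and no named copy had a mean above 18.4.

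Other genes of the same pathways were described from 8 lists of 115 genes, 98 of which were tested, with 13 called higher (13.3%) and 11 lower (11.2%), together 24.5% against 27.6% of all genes. Their median log2 fold change was -4.8e-05. None of the 10 tested partners of NFE2L2 and KEAP1 was called, while at any fold 2 rose and 4 fell. The farthest from 0 was NFE2, a relative of NFE2L2 known from blood cells (log2 fold change -0.88), named here after its value was seen. Of 18 tested genes known as NFE2L2 targets, 3 were called higher and 3 lower (33.3% together), so the list had no common direction. ABCC2, an efflux pump for glutathione and glucuronide conjugates, had 8686, 8582 and 9026 normalized counts in A2780-ADR, against 31.5, 50.9 and 36.9 in A2780 (log2 fold change 7.77, adjusted p = 4.80e-13 from limma). OSGIN1 (log2 fold change 1.99) and PIR (1.21) were the others called higher. SLC7A11, the cystine transporter that supplies cysteine for glutathione, had 94.6, 82.8 and 104 in A2780-ADR, against 546, 733 and 709 in A2780 (log2 fold change -2.80, adjusted p = 1.93e-09). The aldo-keto reductases AKR1C3 (-3.82) and AKR1C2 (-3.48), which can reduce the carbonyl group of drugs and steroids, were lower as well. Their relative AKR1C1, also named after its value was seen, did not pass (log2 fold change 0.054, adjusted p = 0.858 from limma). Reads of these near-identical genes may be split uncertainly. SLC7A11 and both subunits of the ligase that uses its cysteine were thus lower together in A2780-ADR.

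Among 15 tested glutaredoxins, thioredoxin-like proteins and methionine sulfoxide reductases, 2 were called higher and 1 lower (20% together, against 27.6% of all genes). GLRX, the cytosolic glutaredoxin that removes glutathione from proteins, had 1271, 1260.1 and 1422 normalized counts in A2780-ADR, against 97.7, 81.5 and 61.2 in A2780 (log2 fold change 4.05, adjusted p = 1.72e-10 from limma). MSRA, which repairs oxidized methionine, was higher (1.37), and GLRX5, the mitochondrial glutaredoxin of iron-sulfur cluster assembly, was lower (-1.03). Of 7 tested relatives of TXNIP and their transcription factors, 1 was called (14.3%, against 27.6% of all genes). ARRDC4, the arrestin-like relative of TXNIP that also answers to glucose, had 1005, 917 and 1170.3 in A2780-ADR, against 149.5, 146 and 157 in A2780 (log2 fold change 2.76, adjusted p = 1.58e-10). The TXNIP letters were in none of the 132 windows of other pathway genes, which cover 95 of the 115 genes. The pattern was written after the TXNIP promoter had been seen and was in only 0.057% of all windows. Its absence therefore says little about ARRDC4 or any other gene. Other forms of such an element, and sequence outside these windows, were not searched. In 15 tested NADPH sources and pentose phosphate enzymes none was called higher and 1 was called lower (6.67%, against 27.6% of all genes). That gene, ALDH1L2, makes NADPH as a mitochondrial folate enzyme. It had 934, 764 and 956 in A2780-ADR, against 7226, 7304 and 7277 in A2780 (log2 fold change -3.04, adjusted p = 8.12e-12 from limma). The call of ME1 was therefore not shared by the other NADPH sources of the list.

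Of 7 tested oxidases that make superoxide or hydrogen peroxide, 2 were called higher and 3 lower (71.4% together, against 27.6% of all genes). The 9 others listed were under the filter. NOX4, which makes hydrogen peroxide without a stimulus, had 0 reads in A2780-ADR, against 403, 469.6 and 511 normalized counts in the A2780 samples. It was 482-fold lower when the 3 A2780-ADR libraries together are given a floor of 3 reads and the A2780 reads are taken as counted. DUOX2 (-3.98 on the log2 scale, limma's adjusted p = 4.21e-10) and the oxidase activator NOXA1 (-2.02) were lower. CYBA, the membrane subunit that NOX4 pairs with, was higher, with 62.4, 75.1 and 65.4 in A2780-ADR, against 4.07, 3.06 and 7.39 in A2780, and so was the monoamine oxidase MAOB (2.82). Among 18 tested selenoprotein genes and genes of selenoprotein synthesis, SELENOP (1.78) and SELENOW (1.19) were called higher and SELENOF (-1.05) lower (16.7% together). Of 9 sestrins and other genes tied to oxidative stress or ferroptosis, 3 were called higher and 2 lower (55.6% together). SESN3 had 1324, 1238 and 1505 in A2780-ADR, against 4.07, 10.2 and 3.17 in A2780 (log2 fold change 7.77, adjusted p = 3.05e-10), whereas its paralog SESN2, known as a target of stress-activated transcription factors, had 2495, 2444 and 2254 in A2780-ADR, against 6695, 6608 and 6131 in A2780 (-1.43). ACSL4, which loads membranes with the fatty acids that ferroptosis needs, and GCH1, the first enzyme of tetrahydrobiopterin synthesis, were higher (1.92 and 1.76). UCP2, a mitochondrial carrier, had 1.89, 0.963 and 2.89 in A2780-ADR, against 1371, 1324 and 1306 in A2780 (log2 fold change -8.89, adjusted p = 1.14e-11). Of the genes named from these lists, AKR1C2, AKR1C3, NOX4, CYBA, MAOB, SESN3 and UCP2 averaged under 10 in the line where they were lower, so they too passed the filter only through the other line, and their calls are a description.

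**Figure D4:**
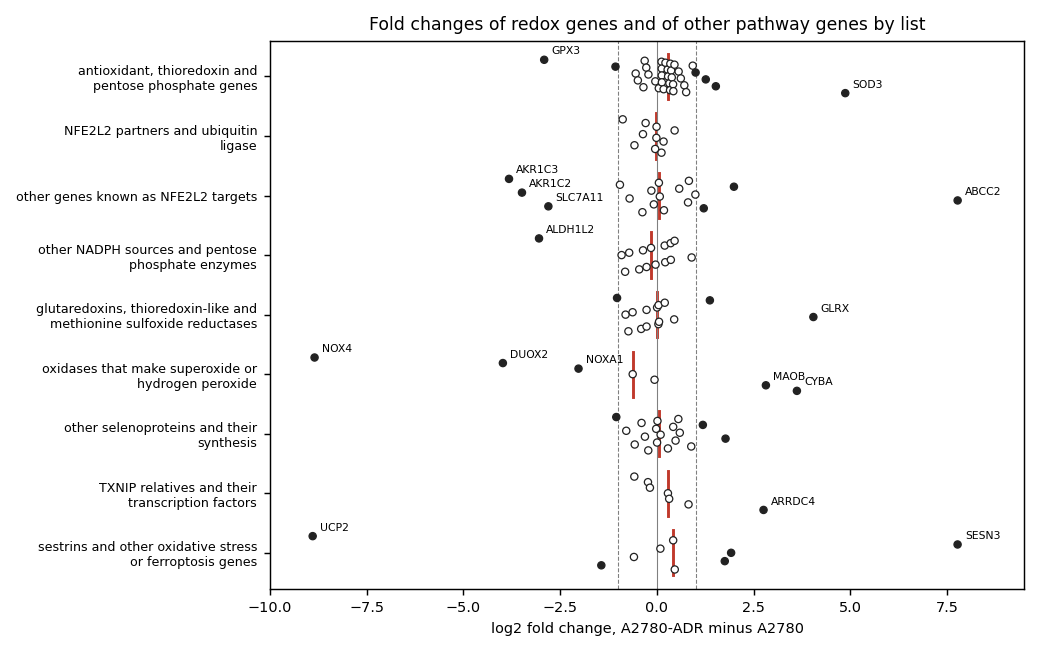
Log2 fold change, A2780-ADR minus A2780, of the 35 tested redox genes (top) and of 98 other tested genes in 8 lists, with called genes filled, list medians as red bars, and dashed lines at 2-fold. Genes beyond 2 on either side are named, and most redox genes lie within 2-fold with SOD3 and GPX3 apart, while ABCC2 and SESN3 on the right and NOX4 and UCP2 on the left lie farthest out.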

How the data were processed

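RNA of 3 A2780-ADR and 3 A2780 samples had been extracted with a column kit, and polyadenylated RNA was made into strand-specific libraries (TruSeq Stranded mRNA). Read counts were scaled by the authors with DESeq, which left a deposited signal value, the normalized count, for each of 58051 genes. STAR, HTSeq, DESeq and GRCh38 are named by the submitters' processing notes, while for versions, annotation release and strand setting the sources used here give nothing. In each sample 100% of the deposited values above 0 were whole multiples of a single read within 0.01, so reads per gene were recovered. The table also names genes for some identifiers. Names and positions were taken from GENCODE release 29 (GRCh38), which matched 57447 identifiers.

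On log2(normalized count + 1), the 17005 genes with a mean of 10 or more were tested by limma 3.58.1 in R 4.3.3 (variance trend), adjusted by Benjamini-Hochberg over all genes. A gene was called past a 2-fold change (the study's fold rule) with an adjusted p below 0.05. The added count of 1 shrinks the fold of genes with few reads. Reads per library (27775745 to 30513366) set the precision, and bounds cover counting error only. Within-line library pairs differed by more than their counting error (2.43 to 9.78 chi-square units per degree of freedom), so none was taken as a repeat.

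The redox genes and all gene lists were chosen with earlier results of these data known. Values per sample are given for called genes, the regulators and the most changed gene of each role without a call, and up to 3 called genes a direction in the other lists. GCLM, TXN, SOD1, SOD2, GPX4 and the genes under the filter were added after their values were seen. Promoters came from RefSeq (GRCh38.p14) and were searched with Python 3.11.15. Alternatives were pseudocounts of 0.5 and 5, no filter or a mean of 50, equal totals, TMM, limma's robust option, edgeR 4.0.16 and DESeq2 1.42.0 on whole reads, the replicate number as a block, a 1.5-fold threshold and each sample left out. The comparison was tested on simulated data.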

Additional observations from a re-analysis of the deposited data

How the results depend on the processing

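Of the 35 tested redox genes, 28 kept their direction and their side of an adjusted p of 0.05 under every alternative run. With a 1.5-fold threshold 8 were called higher (TXN, SOD2, SOD1 and TXN2 were added), and 20 other pathway genes were called higher and 22 lower. With a mean of at least 50, 1 redox gene was called lower, since GPX3 was no longer tested. Leaving out each sample in turn gave 3 to 4 redox genes called higher, 2 called lower in each case and 28 to 33 past the adjusted p at any fold, and 13 to 15 other pathway genes higher and 10 to 11 lower. Genes with no call turned their sign in a single setting each: TXNRD3 stood at -0.058 without A2780 replicate 3 (up to 0.15 with another sample left out) and PGD at 0.0046 without A2780-ADR replicate 3 (down to -0.061). The cause was not tested. PRDX5 was also lost with no filter (adjusted p = 0.0639 from limma).

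The labels do not say whether samples of equal replicate number in the 2 lines belong together. Over all genes tested, deviations from the line means correlated at 0.004, -0.016 and 0.077 between samples of equal number. Genes with few reads weigh as much in these values as abundant ones, so they cannot decide whether the samples were paired. With the replicate number as a block 4690 genes were called in place of 4688, and 33 redox genes passed at any fold in place of 32. GPX4 was the gene added (adjusted p = 0.0245 from limma), and it also passed with equal totals (0.0224), edgeR's quasi-likelihood test (0.0236) and DESeq2 (0.0451). On whole reads edgeR made 4748 calls (4660 in common with limma) and DESeq2 made 4694 (4649 in common), with 6 redox genes called by each. The log2 fold changes of SOD3 ranged from 2.74 to 7.87 over its alternatives, since with 0 reads in A2780 they depend on the count added, and they are no bound. Few reads were counted for GPX2 (32 reads in A2780-ADR and 17 in A2780), GPX7 (4 in A2780-ADR and 6 in A2780) and SRXN1 (22 in A2780-ADR and 31 in A2780). For SRXN1 depth is not the only limit, since it shares 2292 bases with AL121758.1 on its strand.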
